A study of Mus musculus with 20 samples.

Results

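The MYC network is a set of 10 genes considered here: Myc, Mycn, Mycl, Max, Mxd1, Mxd4, Mxi1, Mnt, Mga and Mlx. They were chosen by name from the basic helix-loop-helix leucine zipper proteins that pair with MAX or MLX. No measured value entered the rule, but earlier results of these data were known when they were chosen. They were found by symbol among the 49585 mouse gene IDs of the count table. Mxd3, Mlxip and Mlxipl also belong to the network and are given apart from the 10 genes. RNA sequencing gave 1 library for each of 18 primary mouse osteosarcomas and 2 libraries of an osteosarcoma cell line. The tumours came from mice of mixed C57BL/6J and 129S/SvJae background. They were p53R172H/+ (n = 6), p53R245W/+ (n = 3), p53R270H/+ (n = 5) or p53+/- (n = 4, called p53 het), and the mutations are hotspot missense changes of the tumour suppressor p53. All groups share 1 wild-type p53 allele in the germline, and p53 het mice carry no mutant allele. The cell line, line 14, is labelled p53R245/O with loss of heterozygosity, and 1 library was treated with siRNA against p53 and the other served as control. The labels give no age, sex or number of mice, so the p-values measure the spread between tumour libraries.

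MYC, MYCN and MYCL bind MAX, and the pairs recognise the E-box CACGTG and raise transcription of genes for ribosome building, metabolism and the cell cycle. MXD1, MXD4, MXI1 and MNT compete for MAX at the same sites and recruit SIN3 corepressors, MGA takes MAX into a Polycomb complex, and MLX pairs with the glucose-responsive factors MLXIP and MLXIPL. In osteosarcoma, gain of the MYC locus is a known recurrent change in human tumours.

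The libraries held 20136957 to 29211623 counts in the tumours, and 73352548 with p53 siRNA and 64078428 in the control of the line. Summed markers of osteoblasts, the bone-forming cells, ranged from 12745 to 78782 counts per 1000000 (CPM) in tumours, and reached 2441 CPM with p53 siRNA and 2239 CPM in the control line. Trp53, the targeted gene, averaged 50.6 ± 13.5 CPM in R172H, 64.5 ± 8.54 CPM in R245W, 36.8 ± 11.9 CPM in R270H and 20.2 ± 5.75 CPM in p53 het tumours (SD). One library stood apart: R172H 2 had 1947 CPM of Cdk4 against 99.5 to 357 CPM in the other 17 tumours, and 148 CPM of Xist against 631 to 1749 CPM. All R172H and R245W titles and those of p53 het 1 and 2 carry a serial number, while all R270H titles and those of p53 het 3 and 4 carry none. What the number stands for is not stated, and R270H cannot be told apart from the kind of title when set against R172H or R245W. In bulk tissue, fewer cells of a type and less RNA per cell cannot be told apart.

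The sequences that tie the family to its own target motif are shown first. Promoter windows from RefSeq (GRCm38.p6), 250 bases before to 50 bases after each start site, were searched for CACGTG, which reads the same on both strands. It lay in a window of 2187 of 27025 genes (8.09%), and in 4 of the 9 network genes that have a window, namely Max, Mlx, Mnt and Mxd4. Myc has no window in the table. The matches below are printed with 20 bases on either side in the direction of transcription, with the motif in capitals.
Mnt, chr11:74830781-74830826, plus strand: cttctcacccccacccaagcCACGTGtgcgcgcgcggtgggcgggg
Max, chr12:76962226-76962271, minus strand: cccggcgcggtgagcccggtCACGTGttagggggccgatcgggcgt
Mlx, chr11:101087230-101087275, plus strand: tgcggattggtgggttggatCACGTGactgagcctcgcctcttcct
Mxd4, chr5:34187904-34187949, minus strand: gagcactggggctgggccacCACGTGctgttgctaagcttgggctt
The first base of the motif lies at -3 relative to the start site in Max, -40 in Mlx, -123 in Mnt and -219 in Mxd4. A match describes these letters only. Mnt is the member that passed the edgeR test on all 18 tumours between a pair of genotypes, and Max is its dimer partner.

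Per length, Myc had the highest mean over all tumours and Mycn and Mycl the lowest. The Myc mean is raised by R245W (208 TPM), and in R270H Mxd4 averaged more than Myc (75.8 and 66.7 TPM). Mean levels over the 18 tumours, in transcripts per 1000000 (TPM), were 94.0 ± 61.7 for Myc, 63.6 ± 18.2 for Mxd4, 38.6 ± 11.3 for Max, 34.9 ± 7.6 for Mga and 27.5 ± 8.2 for Mlx (SD). Below these came Mnt at 12.9 ± 5.48 TPM, Mxi1 at 9.95 ± 3.83 TPM, Mxd1 at 7.17 ± 1.97 TPM, Mycn at 1.05 ± 1.84 TPM and Mycl at 0.995 ± 0.578 TPM. The ranges of every pair of neighbours in this order overlapped. Mxd4 was above Max in 16 of 18 tumours, Mlx above Mnt in 16 and Mxd1 above Mycn in 17, whereas Myc was above Mxd4 in 12, Max above Mga in 13, and Mycn above Mycl in 4. The 3 other proteins of the network had mean levels of 21.4 ± 8 TPM for Mlxip, 5.49 ± 2.38 TPM for Mxd3 and 0.251 ± 0.375 TPM for Mlxipl (SD, n = 18). Mxd3 overlaps Prelid1 on the opposite strand, a gene with a median of 100 CPM in tumours. Without a stated strand setting their reads cannot be told apart where they overlap.

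**Figure D1:**
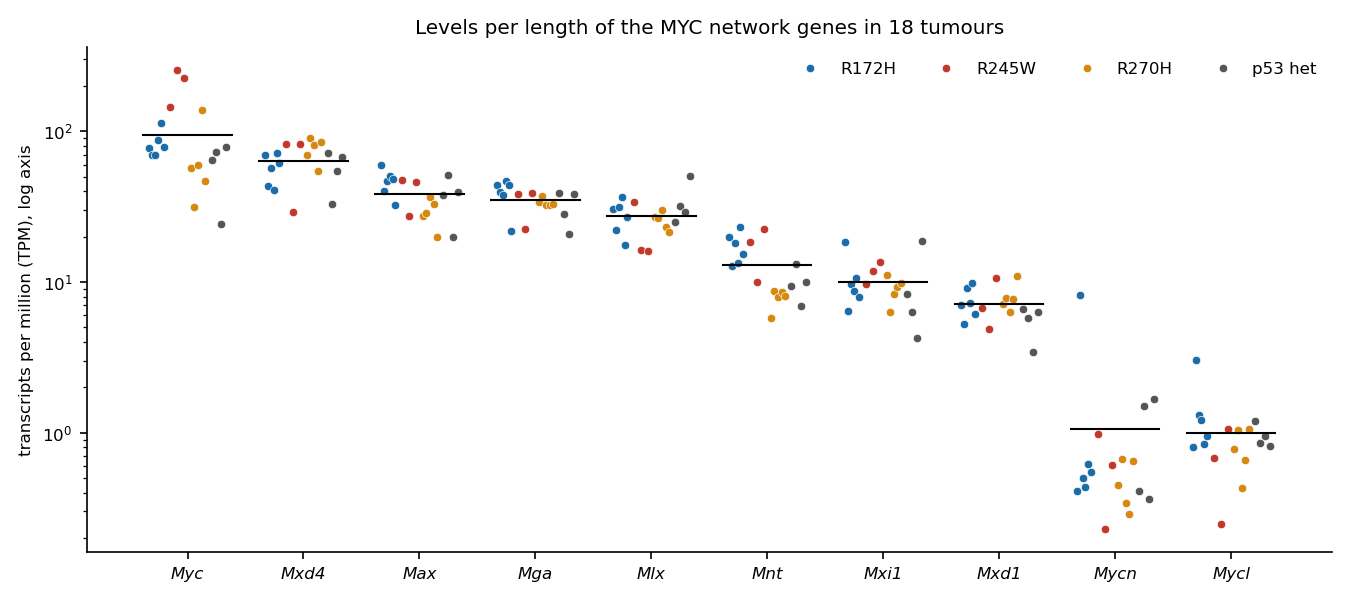
Levels per length (TPM, log axis) of the 10 genes in 18 tumours, ordered by mean (black line), with 1 point per tumour coloured by genotype. By TPM the 3 R245W tumours hold the highest Myc levels, 144 to 255 TPM, with R270H 4 close below at 139 TPM. In CPM R270H 4 lies above R245W 1 (171 and 134 CPM). A single R172H tumour stands above the others for Mycn (8.24 TPM) and Mycl (3.05 TPM).

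All 10 members passed the filter on low counts, so each was among the 20616 genes tested with edgeR's quasi-likelihood test (Benjamini-Hochberg adjustment over all genes, threshold 0.05). None passed in R172H against p53 het, where 0.0776% of all genes did, in R245W against p53 het (0.0728%) or in R270H against p53 het (0%). None passed in R245W against R172H (0.155%) or in R245W against R270H (1.24%), and 1 of 10, Mnt, passed in R270H against R172H (5.28%). In the test of any difference among the 4 genotypes, 2 of 10 passed, Myc and Mnt (2.86%). At an unadjusted edgeR p under 0.05 the members numbered 2 in R172H, 3 in R245W and 1 in R270H against p53 het. They numbered 2 in R245W against R172H, 2 in R245W against R270H and 3 in R270H against R172H. Of all 20616 genes, 2527, 2577 and 2364 had such a p against p53 het, in the same order. The other 3 comparisons had 2217, 3791 and 4779 of all genes, in the same order. The 3 comparisons with p53 het share the same 4 control libraries. DESeq2 called 1 member, Myc, in R245W against p53 het and in R245W against R172H, and 2, Myc and Mnt, in R245W against R270H. It also called more of all genes there, at 376, 353 and 1203 in the same order, against 15, 32 and 255 in edgeR. The median log2 fold of the 10 genes lay between -0.18 (R270H against p53 het) and 0.04 (R172H against p53 het) in the 6 comparisons, and that of all genes tested between -0.04 and 0.00.

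**Figure D2:**
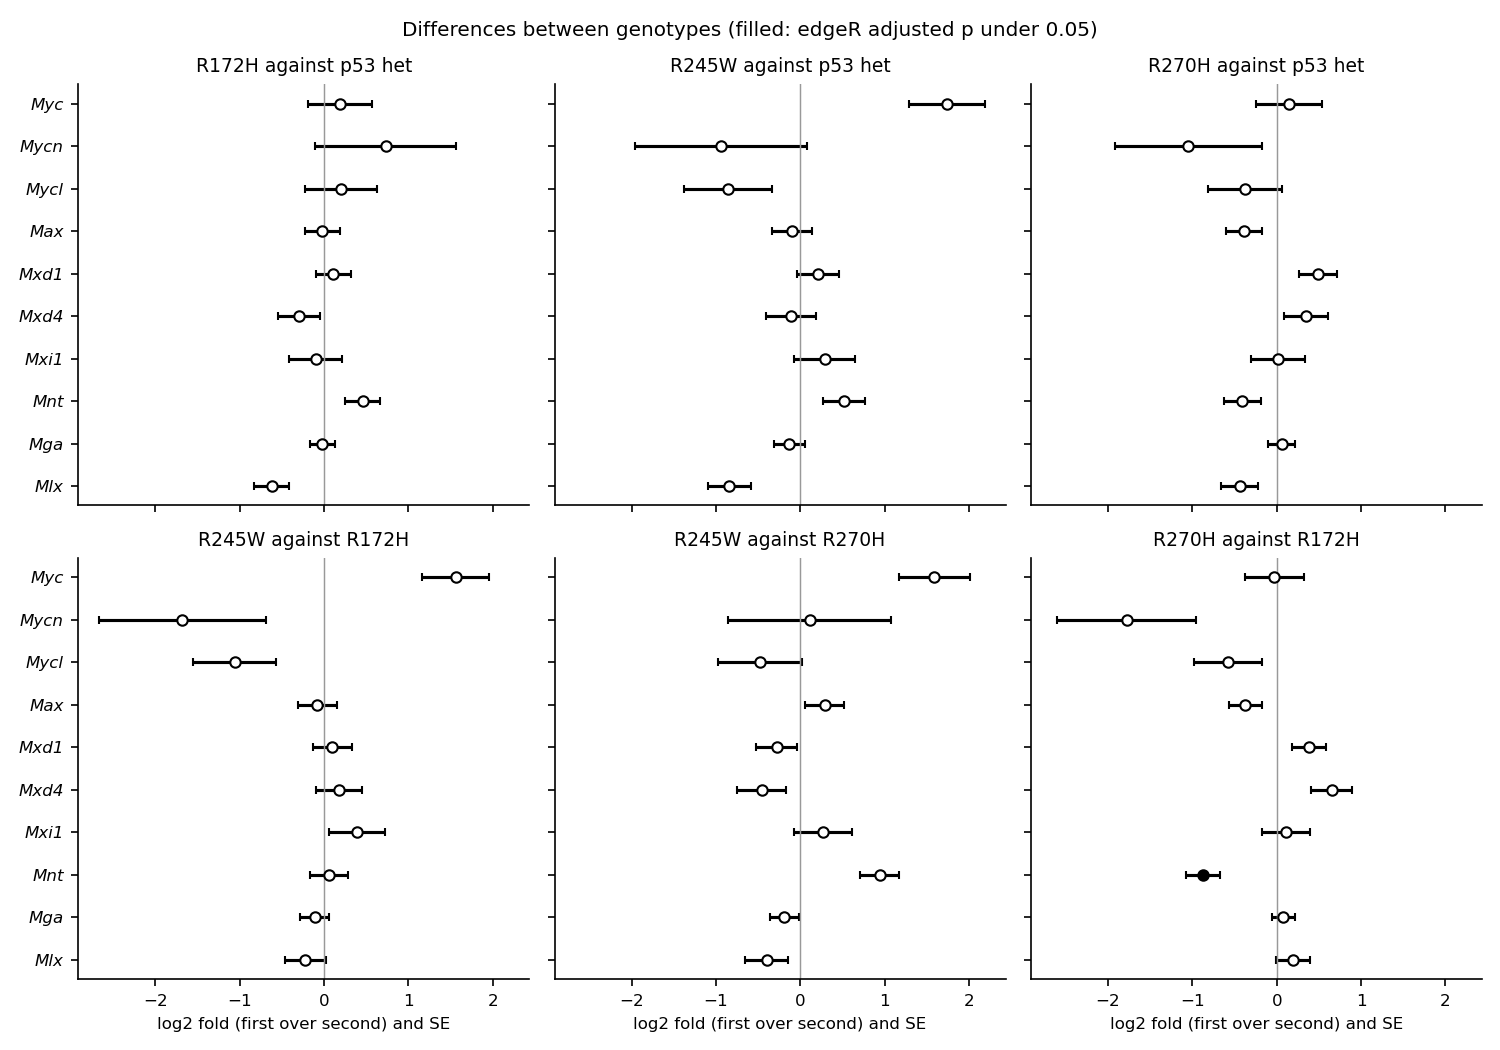
Log2 fold (first genotype over second) with its standard error for the 10 genes in 6 comparisons. Filled points passed the edgeR adjusted threshold, and the single filled point is Mnt in R270H against R172H, at -0.87. Myc lies at 1.56 to 1.74 in the 3 comparisons with R245W on top.

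Myc, the member that drives growth and ribosome genes, was highest in the R245W tumours. It had 134, 378 and 226 CPM in R245W 1 to 3, and 79.4, 35.4, 69.9, 171 and 58.8 CPM in R270H 1 to 5. The R172H tumours had 69.7 CPM at the lowest, 84.0 at the median and 127 at the highest, and p53 het 1 to 4 had 75.7, 83.9, 36.6 and 82.2 CPM. Every R245W tumour was above every R172H and p53 het tumour, while R270H 4 fell within the R245W range. The log2 fold of R245W was 1.74 ± 0.45 over p53 het, 1.56 ± 0.40 over R172H and 1.59 ± 0.42 over R270H (SE), or 3.35-fold, 2.94-fold and 3.01-fold.

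These folds missed the threshold in edgeR, with adjusted p = 0.172, 0.167 and 0.0654 in the same order. DESeq2 gave adjusted p = 0.0220, 0.0311 and 0.0136. Over all alternatives run, the adjusted p ranged from 0.0220 to 0.446 against p53 het, from 0.0311 to 0.648 against R172H and from 0.0136 to 0.661 against R270H. Without R270H 4, the R270H tumour highest for Myc, the log2 fold of R245W over R270H was 2.02 and passed in edgeR (adjusted p = 0.0258). The edgeR test of any difference among genotypes gave an adjusted p of 0.0494 for Myc. It passed in 5 of 18 fits with 1 library left out, those without p53 het 1, p53 het 2, R245W 1, R270H 2 or R270H 4, and its adjusted p over these fits ranged from 0.0253 to 0.241. With the kind of title as a covariate that p was 0.289.

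The log2 folds of Myc among the other genotypes were smaller than their standard errors. Over p53 het the log2 fold was 0.19 ± 0.38 for R172H (adjusted p = 0.879) and 0.15 ± 0.39 for R270H (adjusted p = 0.923, both edgeR), and R270H over R172H gave -0.03 ± 0.35 (adjusted p = 0.970). The sign of each turned when single tumours were left out. None of the 47 marker genes tested for other cell types or for proliferation, from 9 lists of 48 genes, passed in any comparison of R245W. Of all genes, 0.0728% passed in R245W against p53 het, 0.155% against R172H and 1.24% against R270H. A count of 0 among 47 is near these shares. The cartilage matrix gene Comp gave -3.45 ± 0.98 in R245W over p53 het (edgeR adjusted p = 0.202), beside 0.172 for Myc. In the same comparison Col2a1, the cartilage collagen gene, gave -4.21 ± 1.59 and the osteoblast gene Bglap -3.65 ± 1.33 (edgeR adjusted p = 0.299 and 0.284). The median log2 fold of the 5 chondrocyte markers there was -1.75, against -0.04 for all genes. Of these markers 4 were below 0, and Acan was above it (1.01 ± 1.57). The 6 osteoblast markers had a median of -0.22, with 5 below 0 and 1 above. The summed level of the chondrocyte markers was 43.8 to 273 CPM in R245W and 161 to 547 CPM in p53 het tumours. Summed erythroid markers were 128 to 702 CPM in R245W, 55.1 to 441 in R172H, 49.6 to 1726 in R270H and 62.1 to 188 CPM in p53 het tumours. Summed neutrophil markers were 5.51 to 108 CPM in R245W, 2.14 to 24.2 in R172H, 14.9 to 812 in R270H and 9.14 to 42.7 CPM in p53 het tumours. No erythroid or neutrophil marker was at 0 in every tumour of a genotype, and the part of these cell types in the Myc levels was not tested.

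**Figure D3:**
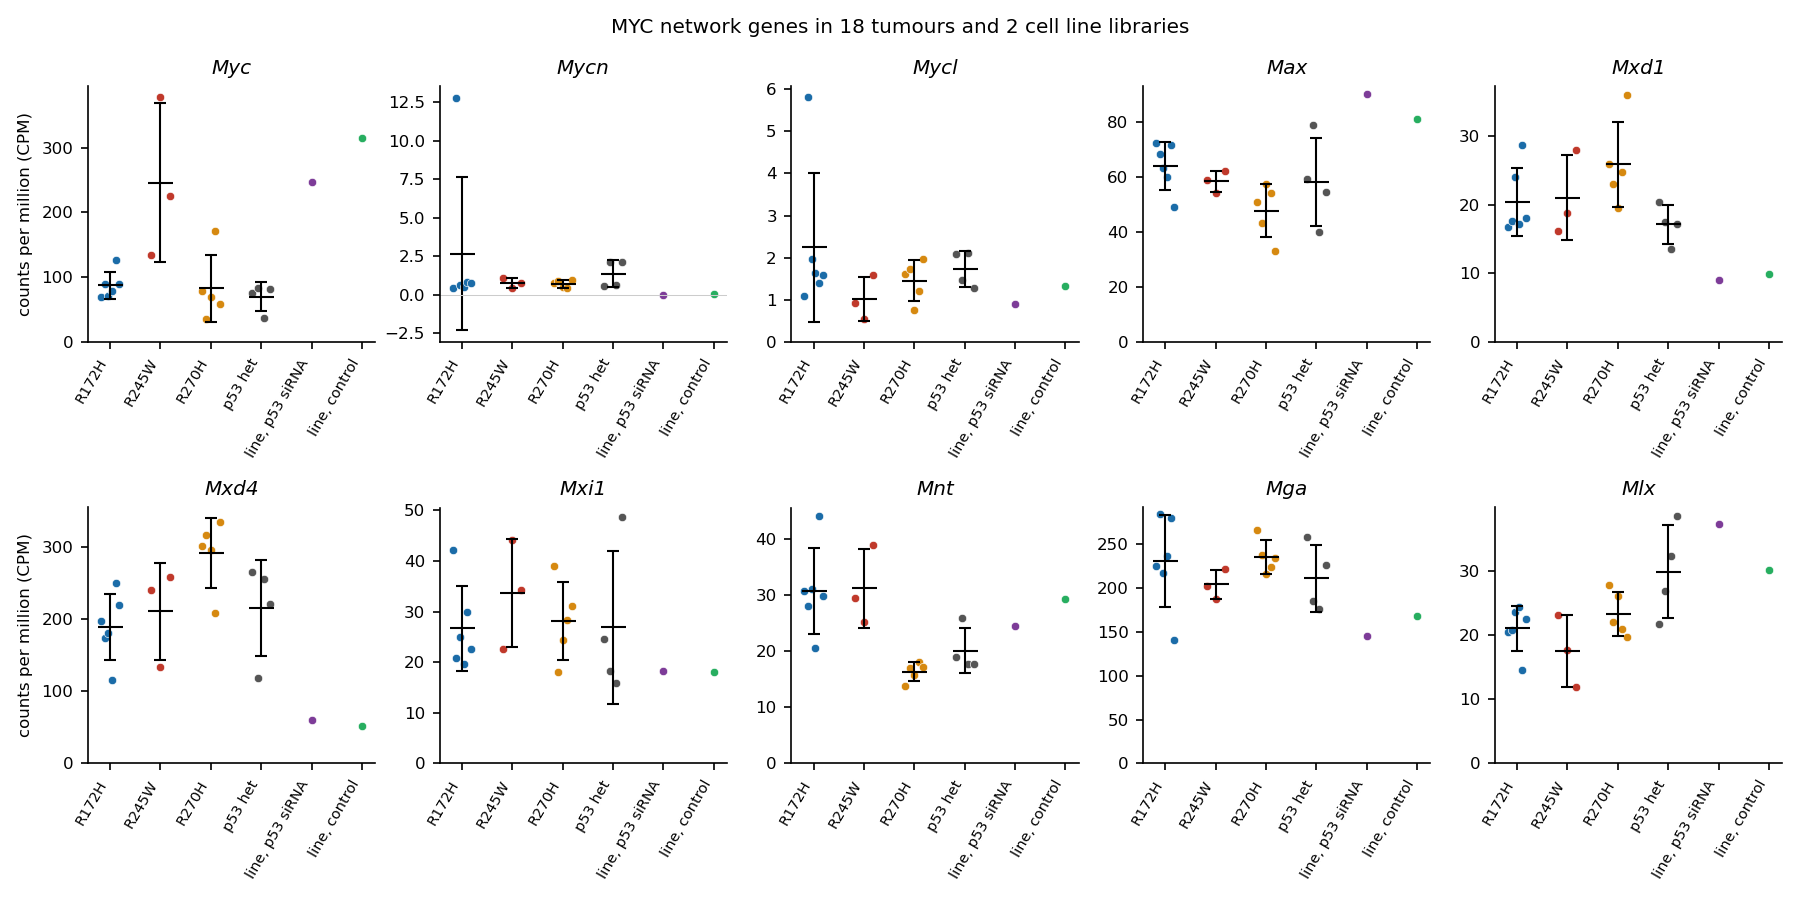
Level in CPM (axes start at 0, apart from the Mycn axis, whose SD bar runs below it) of each gene in R172H (n = 6), R245W (n = 3), R270H (n = 5) and p53 het (n = 4) tumours and in the cell line with p53 siRNA and its control (1 library each). Points are libraries and bars are mean ± SD. Myc is highest by mean in R245W (134 to 378 CPM), a range that holds R270H 4 (171 CPM). All 5 R270H tumours lie at 13.7 to 18.1 CPM for Mnt.

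The neighbourhood of Myc on chromosome 15 showed which tumours with high Myc RNA also had high RNA of adjacent genes. Myc lies at chr15:61985391-61990374 on the plus strand (GRCm38). Pvt1, the long noncoding RNA gene just downstream, was added after its values were seen. Pvt1 had 85.0, 550 and 212 CPM in R245W 1 to 3, and 273 CPM in R270H 4 against a tumour median of 19.6 CPM. It correlated with Myc across the 18 tumours (Pearson r = 0.82), as a description of neighbouring genes in shared libraries. R172H 2 had 70.4 CPM of Pvt1, while its Myc level of 89.2 CPM was near the tumour median of 80.8 CPM. The log2 fold of Pvt1 in R245W was 3.73 ± 1.0 over p53 het (edgeR adjusted p = 0.194) and 3.56 ± 0.86 over R172H (edgeR adjusted p = 0.144), and the edgeR test of any difference gave an adjusted p of 0.0447.

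Of the 10 nearest tested protein-coding genes, 5 on either side, none passed in a comparison of R245W. In R245W 2, the tumour with most Myc, Myc was 2.29 above the tumour median on the log2 scale and Pvt1 4.85 above. Of the 10 neighbours in that tumour only Adcy8, an adenylyl cyclase gene, was high (1.93), though at 0.546 CPM. The other 9 lay between -0.65 (Efr3a) and 0.10. R245W 3 had Myc at 1.48 and Pvt1 at 3.40. Its neighbours were higher more widely, with Gsdmc at 3.30, Adcy8 at 2.41, Asap1 at 1.25 and Washc5 at 0.80, while Fam84b was at -0.15. Gsdmc had 0.751 CPM and Adcy8 0.835 CPM in R245W 3, so their log2 values rest on few reads.

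R270H 4 showed another profile, with high values also well upstream of Myc. Its log2 level over the tumour median was 1.07 for Myc and 3.76 for Pvt1. Sqle, a sterol synthesis enzyme, was at 3.19, Washc5 at 3.27, Nsmce2, a SUMO ligase, at 3.20 and Trib1, a pseudokinase, at 2.30. Washc5 had 1101 CPM in R270H 4, against 62.5 to 280 CPM in the other 17 tumours. Fam84b, which lies between these genes and Myc, was at -0.46, and Fam49b and Asap1 downstream were at -0.37 and -0.69 in this tumour. In p53 het 4 Sqle, Washc5 and Nsmce2 were at 1.26 to 1.33, Trib1 at 0.11 and Fam49b at 1.60. Pvt1 was at 0.97 in p53 het 4, while Myc was at -0.02. These levels are of RNA, and DNA copy number was not measured here.

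**Figure D4:**
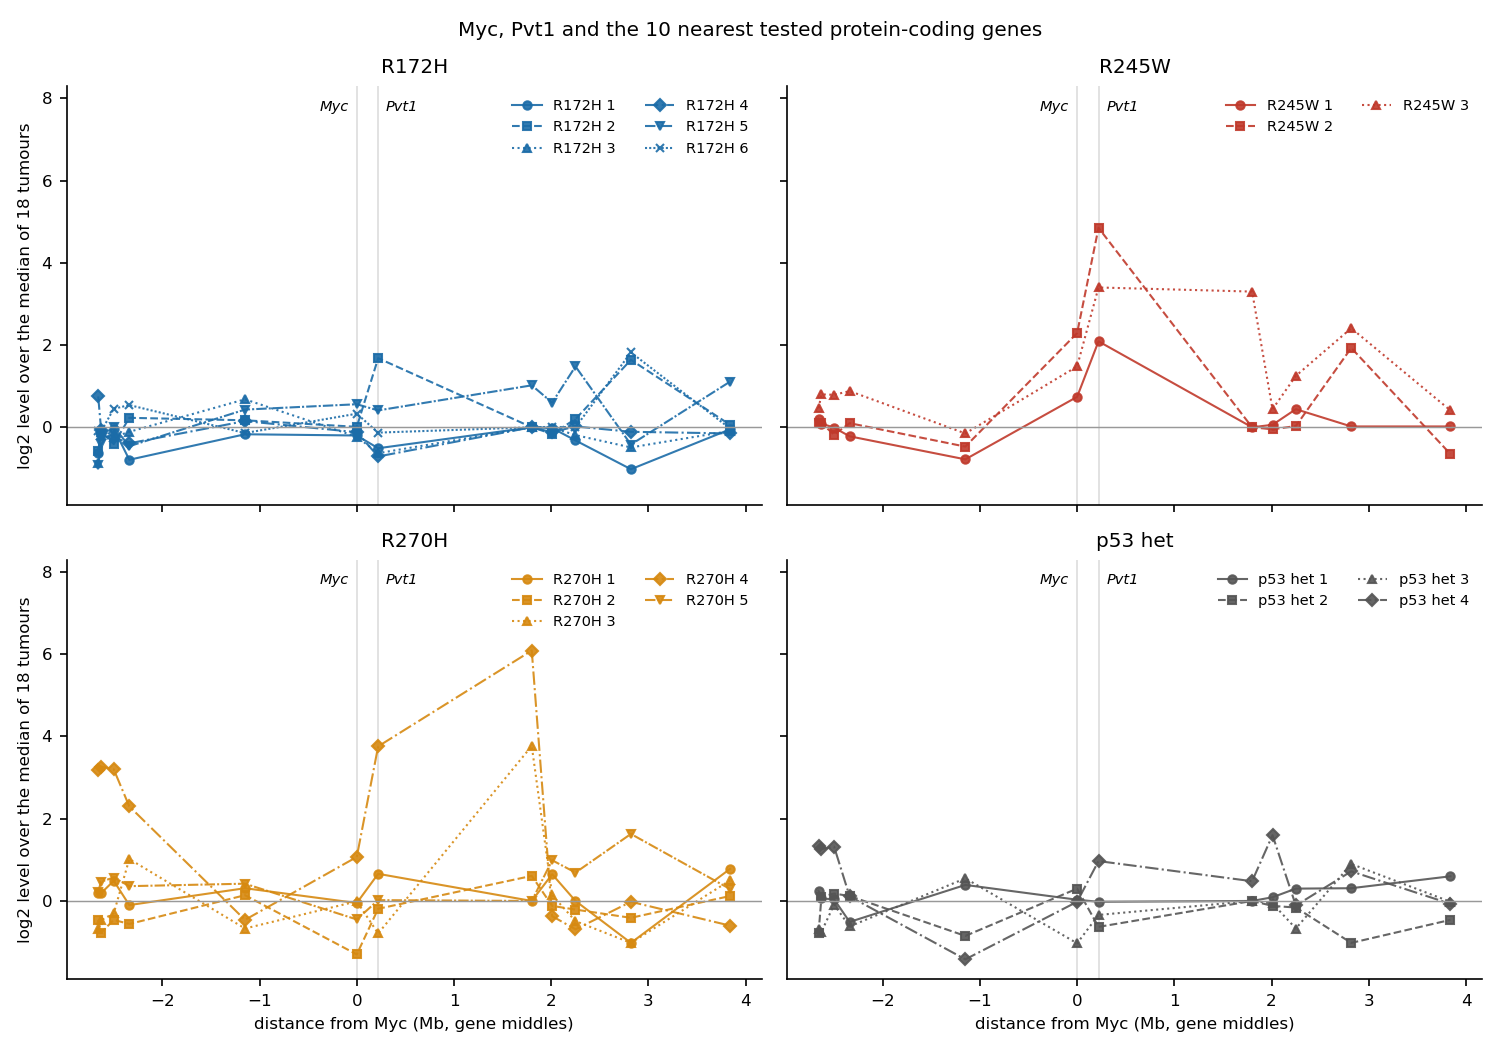
Log2 level of Myc, Pvt1 and the 10 nearest tested protein-coding genes over the median of the 18 tumours, against distance from Myc in Mb, with 1 line per tumour in 4 genotype panels. R245W 2 rises at Myc (2.29) and Pvt1 (4.85), and R270H 4 also upstream of Myc at -2.66 to -2.34 Mb (2.30 to 3.27); the far point of R270H 4 downstream is Gsdmc, a gene with 5.73 CPM there and a tumour median of 0.

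The genes whose log2 CPM tracked Myc most closely, of 13415 with a mean of at least 1 CPM, were Wdr46 (Pearson r = 0.91), Polr3c (0.88), Slc19a1 (0.86), Nop2 (0.86) and Dhx16 (0.84). WDR46 and NOP2 are nucleolar proteins of ribosome building, POLR3C is a subunit of RNA polymerase III, SLC19A1 carries reduced folate into the cell and DHX16 is a splicing helicase. These r are over 18 tumours and were picked as the highest, so they carry no p. Without R245W 2 they were 0.85, 0.81, 0.78, 0.78 and 0.75. Nop2 had 159 CPM in R245W 2 and 53.8 to 126 CPM in the other 17 tumours. Slc19a1 averaged 52.1 ± 21.0 CPM in R245W, 18.6 ± 4.23 in R172H, 24.1 ± 14.3 in R270H and 21.1 ± 7.24 CPM in p53 het tumours (SD). The promoter windows of 3 of these 5 genes hold CACGTG, printed here with the motif in capitals for comparison with those of the network.
Nop2, chr6:125131803-125131848, plus strand: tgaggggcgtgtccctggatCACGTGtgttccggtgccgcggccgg
Polr3c, chr3:96727651-96727689, minus strand: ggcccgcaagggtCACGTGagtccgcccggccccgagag
Wdr46, chr17:33940691-33940736, plus strand: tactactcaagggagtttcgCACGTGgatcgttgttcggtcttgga

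**Figure D5:**
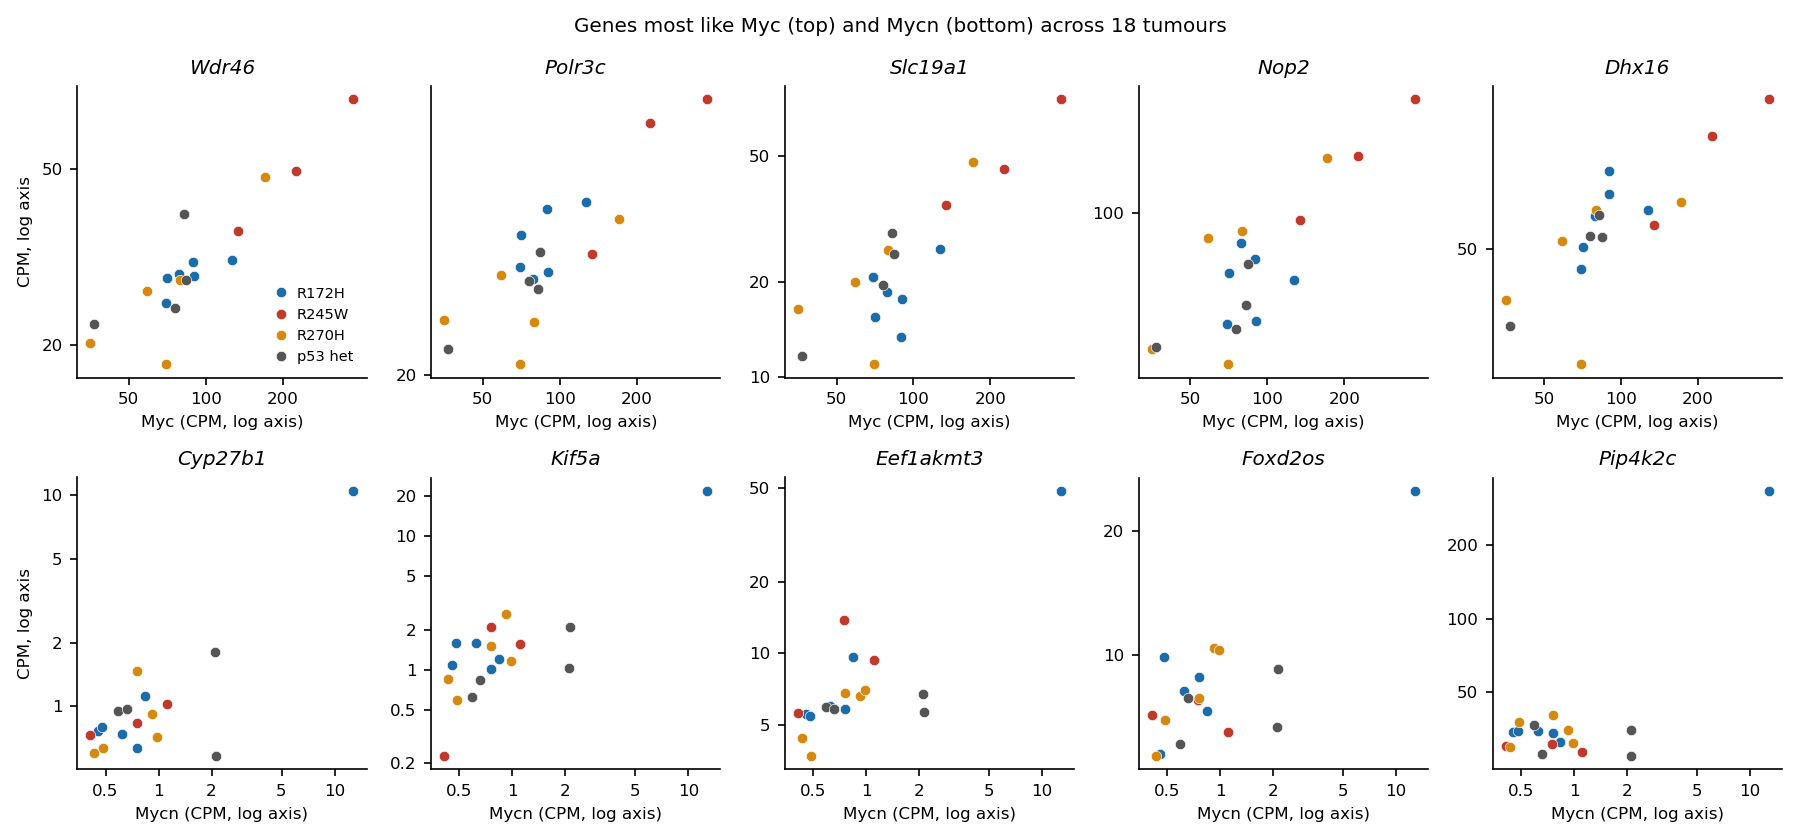
CPM of the 5 genes most like Myc (top) and most like Mycn (bottom) against Myc or Mycn in 18 tumours, on log axes, coloured by genotype. The Myc panels spread over many tumours, while the Mycn panels rest on R172H 2 (Mycn 12.8 CPM).

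A list of 30 genes that MYC is known to activate, drawn up with earlier results of these data known, gave counts for its targets. In R245W against R172H, 27 of 30 had a log2 fold above 0, with a median of 0.48 against 0.00 for all genes, and none passed in edgeR. The 4 of lowest p there were Ncl (0.90 ± 0.21), Nop2 (0.82 ± 0.23), Npm1 (1.06 ± 0.31) and Hspd1 (0.92 ± 0.30), with edgeR adjusted p of 0.137 to 0.271. In R245W against p53 het 20 of 30 were above 0 (median 0.17 against -0.04 for all genes), and against R270H 21 were (median 0.21 against -0.02), and none passed in either. The nucleolar protein gene Gnl3 went the other way, at -0.64 ± 0.27 in R245W against p53 het (edgeR adjusted p = 0.343).

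In R172H against p53 het 23 of 30 were below 0 (median -0.26 against -0.02), with none passing. In R270H against R172H 24 of 30 were above 0 (median 0.30 against -0.02 for all genes). Of the 30 genes, 4 passed as higher and none as lower, where 3.41% of all genes rose. They were Ncl (0.79 ± 0.19, adjusted p = 0.0239), Gnl3 (0.90 ± 0.21, 0.0243), Eif4a1 (1.24 ± 0.30, 0.0264) and Nme1 (0.99 ± 0.25, 0.0322; all edgeR). Ncl and Gnl3 encode nucleolar proteins, Eif4a1 a translation initiation helicase and Nme1 a nucleoside diphosphate kinase. Myc itself differed by -0.03 on the log2 scale in that comparison. Genotype and kind of title cannot be told apart there, which holds for every gene called between R270H and R172H. CACGTG lay in the windows of 9 of the 24 listed genes that have one, among them Eif4a1, Nme1 and Nop2.

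Of 10 genes that MYC is known to repress, only the integrin gene Itgb1 passed, higher in R270H against R172H (0.88 ± 0.16, edgeR adjusted p = 0.00982), where 3.41% of all genes were higher. Among coactivator and chromatin partners of MYC, Hcfc1, a host cell factor that MYC binds, fell in R270H against R172H (-0.55 ± 0.15, edgeR adjusted p = 0.0457), where 1.87% of all genes fell. Of 12 genes for MYC protein turnover, such as Fbxw7, Skp2 and Aurka, none passed in any of the 6 comparisons.

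Mycn and Mycl, the paralogues with more restricted expression, were low in nearly all tumours. Mycn ran from 0.452 CPM through a median of 0.690 to 12.8 CPM in R172H, and 0.410 to 1.11 CPM in R245W. It ran from 0.431 to 0.985 CPM in R270H and was 0.591, 2.10, 0.658 and 2.12 CPM in p53 het 1 to 4. The value of 12.8 CPM belonged to R172H 2, and the other 17 tumours reached at most 2.12 CPM. Mycl also peaked in R172H 2, at 5.81 CPM against 0.546 to 2.11 CPM elsewhere.

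Neither gene passed in any comparison. The log2 fold of Mycn in R270H against R172H was -1.78 ± 0.82 (edgeR adjusted p = 0.201), and 0.17 ± 0.42 without R172H 2. Mycl in R245W against R172H gave -1.06 ± 0.49 (edgeR adjusted p = 0.452). The genes most like Mycn were Cyp27b1, Kif5a, Eef1akmt3, Foxd2os and Pip4k2c, with Pearson r of 0.83, 0.81, 0.80, 0.78 and 0.78 over 18 tumours. Cyp27b1, Kif5a, Eef1akmt3 and Pip4k2c start near 127 Mb of chromosome 10, next to Cdk4, which starts at 127063534. Each of the 5 was highest in R172H 2, and without that tumour r lay between -0.04 and 0.45. Mycn itself is on chromosome 12.

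Max, the shared partner, averaged 57.2 ± 11.6 CPM over the 18 tumours (SD). It ran from 49.0 CPM through a median of 65.8 to 72.2 CPM in R172H, and 58.8, 54.2 and 62.0 CPM in R245W 1 to 3. It had 50.7, 43.1, 57.3, 54.0 and 33.2 CPM in R270H 1 to 5 and 59.2, 78.7, 39.8 and 54.6 CPM in p53 het 1 to 4. All groups overlapped, and its log2 folds lay between -0.39 and 0.29, with none passing.

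Mnt, the broadly expressed repressor that opposes MYC, was lower in R270H than in R172H tumours. It had 13.7, 16.9, 15.8, 18.1 and 17.2 CPM in R270H 1 to 5, against 20.6 CPM at the lowest, 30.2 at the median and 44.0 at the highest in R172H. R245W 1 to 3 had 29.4, 25.1 and 38.9 CPM, and p53 het 1 to 4 had 19.0, 25.9, 17.7 and 17.6 CPM. The R270H tumours did not overlap the R172H or R245W tumours and overlapped the p53 het range. The log2 fold of R270H over R172H was -0.87 ± 0.20, or 1.83-fold lower (edgeR adjusted p = 0.0212, lower in 5 of 5 tumours than every R172H tumour). It passed in 17 of 18 fits with 1 library left out and missed without R270H 1 (adjusted p = 0.0563); over all alternatives the adjusted p ranged from 0.00139 to 0.796.

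Mnt also followed the kind of title. The 7 tumours without a serial number had 13.7 to 18.1 CPM and the 11 with one had 19.0 to 44.0 CPM, without overlap. With the kind of title as a covariate the fold was -0.36 ± 0.36 (edgeR adjusted p = 0.796), and 1 gene of all tested passed in that comparison with the covariate, so genotype and kind of title cannot be told apart here. The log2 fold of R245W over R270H was 0.94 ± 0.23 (edgeR adjusted p = 0.0556), and it was 0.43 ± 0.38 with the covariate. Against p53 het the folds of Mnt were 0.46 ± 0.21 for R172H, 0.52 ± 0.25 for R245W and -0.41 ± 0.22 for R270H, none past the threshold. The test of any difference gave an adjusted p of 0.0493, which passed in 4 of 18 fits with 1 library left out, those without p53 het 1, p53 het 2, R172H 4 or R245W 2. Over these 18 fits it ranged from 0.0223 to 0.109 (edgeR).

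Blood cell markers moved in the same comparison of R270H with R172H. Of the 47 marker genes tested, 4 rose and 1 fell, where 3.41% of all genes rose and 1.87% fell. They were the neutrophil genes S100a8 (4.72 ± 1.24) and S100a9 (5.54 ± 1.30), the erythroid genes Klf1 (3.60 ± 0.99) and Slc4a1 (4.62 ± 1.31), and the macrophage gene Cd68 (-1.45 ± 0.40; edgeR adjusted p of 0.0234 to 0.0488). R270H 5 was far above the other R270H tumours in the 4 genes that rose. Klf1 had 16.8 CPM in R270H 5 and 0.172 to 1.21 CPM in the other 4 R270H tumours, against 0.116 to 0.506 CPM in R172H. Slc4a1 had 188 CPM in R270H 5 and 0.172 to 20.2 CPM in the other 4, and S100a8 had 303 CPM and 4.63 to 30.5 CPM. Cd68 had 51.9 to 189 CPM in R270H and 266 to 501 CPM in R172H tumours. Summed macrophage and dendritic cell markers were 265 to 876 CPM in R270H and 910 to 1303 CPM in R172H, without overlap, as for Mnt. They were 451 to 1007 CPM in R245W and 422 to 1082 CPM in p53 het tumours. The single markers of this list were split in R270H against R172H, with 3 log2 folds above 0 and 3 below (median -0.11). Among them the macrophage gene Adgre1 was at 0.60 ± 0.29 (edgeR adjusted p = 0.220), opposite to Cd68. The part of these cells in the Mnt difference was not tested.

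The MXD genes, which are linked to differentiation, differed by small amounts. Mxd4 had 208 CPM at the lowest, 302 at the median and 334 at the highest in R270H, against 115 CPM at the lowest, 190 at the median and 250 at the highest in R172H. R245W 1 to 3 had 241, 134 and 258 CPM, and p53 het 1 to 4 had 265, 119, 256 and 221 CPM. R270H 4 fell within the R172H range and the other 4 R270H tumours lay above it. The log2 fold of R270H over R172H was 0.65 ± 0.24 (edgeR adjusted p = 0.111); limma voom gave an adjusted p of 0.0324 within a range over alternatives of 0.0324 to 0.804, and the covariate fit gave 0.46 ± 0.47.

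Mxd1 had 25.9, 23, 19.5, 24.8 and 35.9 CPM in R270H 1 to 5, against 20.3, 17.4, 13.5 and 17.2 CPM in p53 het 1 to 4. R270H 3 alone of the R270H tumours fell within the p53 het range. The log2 fold was 0.49 ± 0.22 (edgeR adjusted p = 0.415), and Mxd1 averaged 20.3 ± 4.89 CPM in R172H and 21.0 ± 6.20 CPM in R245W. Mxi1 averaged 26.7 ± 8.41 CPM in R172H, 33.7 ± 10.7 in R245W, 28.2 ± 7.79 in R270H and 26.8 ± 15 CPM in p53 het tumours (SD), and its groups overlapped. Mxi1 folds lay between -0.10 and 0.39, none past the threshold. Of 9 SIN3 and NCOR corepressor genes that serve the MXD and MNT proteins, none passed in any of the 6 comparisons.

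Mga, the largest protein of the network, had the smallest SD relative to its mean of the 10 genes (223 ± 36.7 CPM over 18 tumours). It averaged 231 ± 52.4 CPM in R172H, 205 ± 17.0 in R245W, 236 ± 18.9 in R270H and 211 ± 38.4 CPM in p53 het tumours (SD). Its log2 folds lay between -0.19 and 0.08, none past the threshold. Of 9 other subunits of its Polycomb complex, PRC1.6, Cbx3, a heterochromatin protein, rose in R270H against R172H (0.76 ± 0.15, edgeR adjusted p = 0.0121), where 3.41% of all genes rose, and no other passed in any pairwise comparison. Of 10 germline genes that this complex silences, 2 passed the filter on low counts and neither passed the test. The summed level of those 10 genes was 1.09 to 19.8 CPM per tumour.

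Mlx, the partner of the glucose sensors, was lowest in R245W by mean. It had 23.1, 17.7 and 11.9 CPM in R245W 1 to 3, and 14.5 CPM at the lowest, 21.6 at the median and 24.3 at the highest in R172H. It had 27.7, 22, 26, 21 and 19.7 CPM in R270H 1 to 5 and 21.7, 26.9, 32.3 and 38.5 CPM in p53 het 1 to 4. Every mutant group overlapped p53 het. The log2 fold was -0.84 ± 0.26 for R245W, -0.62 ± 0.21 for R172H and -0.44 ± 0.22 for R270H, all over p53 het, with edgeR adjusted p of 0.219, 0.265 and 0.468. Mlx overlaps Psmc3ip on the opposite strand, a gene with a median of 4.72 CPM, and without a stated strand setting their reads cannot be told apart. Of 6 MLX partners and targets, the lysosome factor Tfe3 fell in R270H against R172H (-0.60 ± 0.16, edgeR adjusted p = 0.0420), where 1.87% of all genes fell, and no other passed.

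The members did not vary together beyond the adjusted threshold. Of 45 pairs of the 10 genes across the 18 tumours, 7 had an unadjusted permutation p under 0.05 and none passed after Benjamini-Hochberg adjustment. Max and Mnt gave Pearson r = 0.60 (permutation p = 0.00647, adjusted p = 0.240) and Spearman rho = 0.69 (permutation p = 0.00173, adjusted p = 0.0778), with r = 0.61 without the 2 tumours farthest in Max. Within the 11 tumours with a serial number r was 0.22, and within the 7 without it was 0.10, both lower than over all tumours. Within genotypes r was 0.49 (permutation p = 0.0454, adjusted p = 0.400). Mycn and Mycl gave r = 0.65 (permutation p = 0.0106, adjusted p = 0.240) and rho = 0.42 (permutation p = 0.0884, adjusted p = 0.466), and r = 0.19 without the 2 tumours farthest in Mycn. That relation rests on those tumours.

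In line 14, p53 siRNA left 30.6 CPM of Trp53 against 94.9 CPM in the control library, a log2 ratio of CPM + 1 of -1.60. With 1 library a condition there is no test, and intervals cover counting error only. Myc had 247 CPM with p53 siRNA (95% exact Poisson interval 243 to 251) and 315 CPM in the control (311 to 320), a log2 ratio of -0.35. Among the tumours only R245W 2, at 378 CPM, had a higher Myc level than either line library. Mlx had 37.2 CPM with siRNA (35.9 to 38.7) and 30.1 CPM in the control (28.8 to 31.5), a log2 ratio of 0.30, and Mxd4 had 60.7 CPM (59.0 to 62.5) and 51.3 CPM (49.6 to 53.1), a ratio of 0.24.

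No member passed 1.5-fold in the line, of the 7 with at least 10 CPM in 1 library, where 0.851% of 9398 genes did. Mnt was at 24.5 CPM with siRNA and 29.3 CPM in the control (log2 ratio -0.24), Mga at 146 and 168 CPM (-0.21), Max at 90.2 and 81.0 CPM (0.15) and Mxi1 at 18.2 and 18 CPM (0.02). Mxd1, Mycl and Mycn lay under 10 CPM in both, and Mycn had 0 counts with siRNA, which allows up to 0.0409 CPM, and 1 count in the control. The median log2 ratio of the 7 genes was 0.02 against -0.02 for all genes. None of 29 MYC-activated genes passed 1.5-fold. Of 4 MLX partners and targets, Txnip (196 CPM with siRNA and 326 CPM in the control) and Arrdc4 (68.7 and 104 CPM), arrestin genes that MLX complexes activate, were lower past 1.5-fold, where 0.628% of all genes were lower. The log2 ratio of Arrdc4 was -0.59 with CPM + 1, and it was -0.56 with TMM scaling and with CPM + 5, both short of 1.5-fold. Among 9 MYC-repressed genes, the p53 targets Cdkn1a (3.65 and 12.9 CPM) and Gadd45a (30.2 and 58.3 CPM) were lower past it.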

How the data were processed

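The deposited file holds counts per gene and library; per the submitters' processing notes the authors used STAR 2.6.0b for alignment, on the GRCm38 build, and DESeq2 for their own tests. The counting program, its annotation and its strand setting are not given in the sources used here. All 20 columns were used. Gene IDs were joined to symbols of GENCODE M21 (49326 of 49585 matched), and CPM and TPM were computed from the counts, with exon union lengths for TPM.

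Tumours were tested with edgeR 4.0.16 in R 4.3.3 (TMM scaling, filterByExpr with a minimum count of 10, 1 quasi-likelihood fit of all 18 tumours by genotype, 14 residual degrees of freedom), adjusted over 20616 genes at 0.05. DESeq2 1.42.0, limma 3.58.1 voom, other scaling, no filter, subsets, the kind of title as a covariate and leaving out each tumour were alternatives. Pairs of members were tested by 100000 permutations of log2 CPM (prior count 2). The line was described by log2 ratios of CPM + 1. Scripts were tested on simulated data. A library with 0 counts allows up to 3 counts (0.0409 to 0.149 CPM). Technical and biological spread between tumours cannot be separated, since nothing says how libraries relate to animals. All members are named throughout; of other lists, counts and up to 4 genes of lowest p; the members and lists were chosen with earlier results of these data known. TMM factors ran from 0.854 to 1.11. One gene of the list of MYC coactivator and chromatin partners is not reported here.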

Additional observations from a re-analysis of the deposited data

Results flagged for a closer look

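In 30 groups of 4 to 6 tumours, 1 for each member in R172H, R270H and p53 het, 4 held a tumour far from the others by Dixon's criterion, which chance meets in about 1 in 20 groups. Mycn was 12.8 CPM in R172H 2 and at most 0.837 CPM in the other R172H tumours. Mycl was 5.81 CPM in the same tumour and at most 1.98 CPM in the others. Myc was 127 CPM in R172H 5, with the next R172H tumour at 89.9 CPM. Mnt was 25.9 CPM in p53 het 2, with the next p53 het tumour at 19.0 CPM.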

How the results depend on the processing

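No paired analysis was possible because the replicate numbers only follow the order of the libraries and the labels pair no tumours. Over 461 alternative values of 19 gene results, 404 kept direction and side of the threshold, 35 lost a call, 11 gained one and 11 turned sign. The 19 were the member results with an unadjusted edgeR p under 0.05 and all results of Myc. Most were not called in the main fit, so a kept side mostly means no call. The call of Mnt in R270H against R172H held in 22 of 24 alternatives. In the test of any difference the call held in 7 of 23 for Myc and 6 of 23 for Mnt. DESeq2 called 1 member in R245W against p53 het, 1 in R245W against R172H and 2 in R245W against R270H. Voom called 2 members in R245W against R270H and 2 in R270H against R172H, beside 1047 and 2294 of all genes. The title covariate left 0 members in R270H against R172H, and any difference had 0 with it, with voom and with no filter. Leaving out single tumours gave 0 to 1 members in R245W against R270H and in R270H against R172H, and 0 to 2 for any difference. These member counts are to be read beside the calls over all genes under the same settings, which follow.

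Calls over all genes moved more, and the cause was not tested. For R172H against p53 het (16) they were DESeq2 308, no filter 33, voom 0, only these groups 0, title covariate 3, p53 het 1 and 2 alone 4, and 0 to 166 without single tumours (highest without p53 het 1). For R245W against p53 het (15) they were DESeq2 376, only these groups 4, covariate 8, p53 het 1 and 2 alone 9, and 5 to 30 (lowest without R245W 1, highest without p53 het 2). For R270H against p53 het (0) they were DESeq2 329, no filter 2, voom 1, covariate 4, p53 het 3 and 4 alone 4, and 0 to 21 (highest without p53 het 3), with 2364 genes at an unadjusted p under 0.05. For R245W against R172H (32) they were DESeq2 353, voom 119, and 14 to 39 (lowest without R172H 1 or R172H 6). For R245W against R270H (255) they were DESeq2 1203, no filter 109, voom 1047, covariate 8, and 48 to 411 (lowest without R245W 3, highest without p53 het 2). For R270H against R172H (1088) they were DESeq2 2249, no filter 633, voom 2294, only these groups 1638, covariate 1, and 469 to 1323 (lowest without R172H 3). For any difference (590) they were DESeq2 2519, voom 330, covariate 19, and 185 to 937 (lowest without R270H 1, highest without p53 het 1). In the line, CPM + 5 left 43 genes past 1.5-fold in place of 80.

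Myc changed sign in R172H against p53 het with the covariate (-0.09), with p53 het 1 and 2 alone (-0.10) and without p53 het 3 (-0.02; range without single tumours -0.02 to 0.35). In R270H against p53 het it did so without p53 het 3 (-0.06) and R270H 4 (-0.28; range -0.28 to 0.35). In R270H against R172H it did so with the covariate (0.58) and without R172H 5 (0.08), R172H 6 (0.02), R270H 2 (0.16) and R270H 5 (0.07; range -0.47 to 0.16). Mycn in R270H against R172H ranged from -2.02 to 0.17, the highest without R172H 2.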

Other observations

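Single tumours held very high RNA of other genes tied to the network. Tfdp1, a partner of E2F6 in the complex of MGA, had 788 CPM in R172H 4 and 33.1 to 122 CPM in the other 17 tumours. Slc25a31, a germline gene that this complex silences, had 16 CPM in R245W 1 and 0 to 0.397 CPM in the others. Cdk4, a MYC-activated gene, had 1947 CPM in R172H 2. Gsdmc, a pore-forming protein gene near Myc, had 5.73 CPM in R270H 4, 0.934 CPM in R270H 3 and 0 CPM in R270H 1 and 5, and a tumour median of 0 CPM. These genes were picked after their values were seen.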
